A study of Mus musculus with 24 samples.

Results

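Conditioned medium (CM) from unedited LL2 tumor cells was compared with control media in primary murine bone marrow-derived macrophages (BMDMs), both in the presence of vehicle. The comparison used 6 of the 24 RNA-sequencing libraries of the series, 3 from WT/vehicle BMDMs and 3 from media/vehicle (naïve) BMDMs, and covered every gene that passed a filter on low values. LL2 is a Lewis lung carcinoma line of C57BL/6 origin. Bone marrow of C57BL/6 mice was differentiated with M-CSF at 20 ng/mL, the growth factor that drives macrophage differentiation, before either medium was given. LL2 cells with wild-type KEAP1 and NRF2 had conditioned their medium for 48 h, and this CM made up 75% of what WT/vehicle BMDMs received for 24 h. Naïve BMDMs received medium that had been kept on a plate without cells. Vehicle was the control for CDDO-Me, an NRF2 activator that neither group received. Tumor cells and macrophages were not cultured together, and the CM came from 1 cell line. The labels describe replicates 1 to 3 of each group as independent samples and do not say which mice they came from.

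Macrophages change their gene expression with the signals around them. Interferon gamma and bacterial products induce classical activation, with inflammatory cytokines and nitric oxide synthase. IL-4 and IL-13 bind receptors that contain IL-4Rα, act through JAK kinases and STAT6, and induce alternative activation, with arginase 1, chitinase-like proteins, resistin-like proteins and lectin receptors. Macrophages in tumors often carry features of alternative activation, which have been linked to tissue repair and to restraint of T cells.

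Each value is given in TPM, the length-corrected share of a gene's transcripts among all transcripts of a library. Levels can thus be compared between genes, while the number of reads behind them is unknown. In the 6 libraries, 17880 to 18586 genes had a TPM above 0. Markers of macrophages were abundant in both groups, though some were lower with WT CM. Of 41 macrophage identity and surface markers tested, 4 were called higher (9.8%) and 6 lower (14.6%), against 4.33% and 3.01% over all genes tested. The list's summed level was 46700, 46300 and 47000 TPM in the naïve libraries and 38600, 37200 and 41000 TPM with WT CM. Fcgr1, another marker of macrophages, was called lower, as given below. Lyz2, which encodes lysozyme, was listed at 18400 to 18700 TPM in the naïve libraries and at 13000 to 13500 TPM with WT CM, and was not called different. Cd68, of the lysosomal membrane, lay between 2000 and 2220 TPM over both groups, and Csf1r, the M-CSF receptor, between 727 and 1090 TPM, and neither gene was called different (adjusted p = 0.93 and 0.66). Adgre1, which encodes F4/80, was at 598 to 674 TPM in naïve and 757 to 929 TPM in WT/vehicle BMDMs, and its difference of 0.46 on the log2 scale passed the threshold only with the replicate number as a block (adjusted p = 0.12 without and 0.027 with it). Defining markers of T and NK cells were near 0, with 13 of 14 at or under 1 TPM in each of the 6 libraries, and so were 12 of 15 markers of basophils and mast cells and 10 of 12 of red cells and platelets. The basophil and mast cell markers above this level were Il4, Mcpt8 and Kit. Il4 was at 18 to 24.6 TPM in naïve and 13.8 to 18.5 TPM in WT/vehicle BMDMs, and Mcpt8 at 2.99 to 3.81 and 0.579 to 1.75 TPM. Neither was called. Kit, at 2.92 to 6.03 and 0.517 to 1.81 TPM, was called lower, but not without WT/vehicle replicate 2 or 3 or media/vehicle replicate 1 or 2.

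Markers of some other cell types were not near 0. The neutrophil list had 6 of 14 markers at or under 1 TPM in each of the 6 libraries, the B cell list 6 of 10, the endothelial list 1 of 10, the dendritic cell list 9 of 12 and the epithelial list 7 of 11. The highest members were Csf3r among neutrophil markers (40.5 to 56 TPM in naïve and 75 to 117 TPM in WT/vehicle BMDMs), Ighm among B cell markers (79.1 to 93.2 and 55.8 to 69.1 TPM) and Vwf among endothelial markers (48.5 to 58.2 and 71.5 to 114 TPM). Among dendritic cell markers it was Fscn1, at 71 to 95.4 and 32.6 to 58.6 TPM with no overlap, which was not called. With 3 libraries against 3, complete separation of the groups has a two-sided p of 0.1 in an exact permutation test. A lack of overlap is therefore given here and below as a description and not as a call. The highest epithelial marker was Cdh1, at 0.0213 to 0.0594 TPM in naïve and 3.06 to 4.04 TPM in WT/vehicle BMDMs. Cdh1 and Csf3r were called higher, as was the dendritic cell marker Cd209a (0.106 to 0.465 and 3.23 to 3.78 TPM). Ly75, of the dendritic cell list (5.51 to 6.96 and 2.84 to 3.59 TPM), and Kdr, of the endothelial list (2.33 to 4.18 and 0.96 to 1.58 TPM), were called lower. The call on Kdr was lost without WT/vehicle replicate 3 or media/vehicle replicate 1 or 2.

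Markers of fibroblasts were the most abundant of these. Of 25, none was at or under 1 TPM in all 6 libraries, and their summed level was 4380, 4920 and 2900 TPM in naïve replicates 1, 2 and 3 and 2620, 3670 and 1730 TPM in WT/vehicle replicates 1, 2 and 3. The sum was lower with WT CM in each same-numbered pair, although the groups overlapped. In RNA from bulk cultures, fewer cells of a kind and less RNA per cell cannot be told apart. The 3 fibroblast markers that passed the test were the contractile genes Acta2, Tagln and Cnn1, all lower with WT CM, against 10 lower with the replicate block. Only Acta2 was called without media/vehicle replicate 1 or 2 or any 1 of the WT/vehicle replicates. The collagen gene Col3a1 was at 63.6 to 108 TPM in naïve and 92.9 to 240 TPM in WT/vehicle BMDMs (log2 fold change 0.83, adjusted p = 0.7). Where these markers move with a result below, the values stand beside it, and their part in it was not tested.

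WT CM changed the level of 1002 of the 13661 genes tested (7.33%), by limma with adjusted p under 0.05. Of these, 591 genes (4.33%) were higher and 411 (3.01%) were lower than in naïve BMDMs, and for 384 the log2 fold change was 1 or more in size. Log2 fold changes are of TPM plus a pseudocount of 1, which understates the change of genes with low levels. The largest changes were rises. On this scale 15 genes with no overlap between the groups rose by at least 3.97, while only Cx3cr1 fell by as much. The number of genes called depended on the libraries that set the spread. It was 1734 with the replicate number as a block (12.7%), and 2597 without the 2 libraries in the series with the fewest genes, both of replicate 3 with NRF2 KO CM and both outside this comparison. With 1 of the 6 libraries left out it lay between 606, without media/vehicle replicate 1, and 722, and was 655 without WT/vehicle replicate 1 and 647 without media/vehicle replicate 2. Without scaling between libraries, 486 of 1009 genes were higher and 523 lower.

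**Figure D1:**
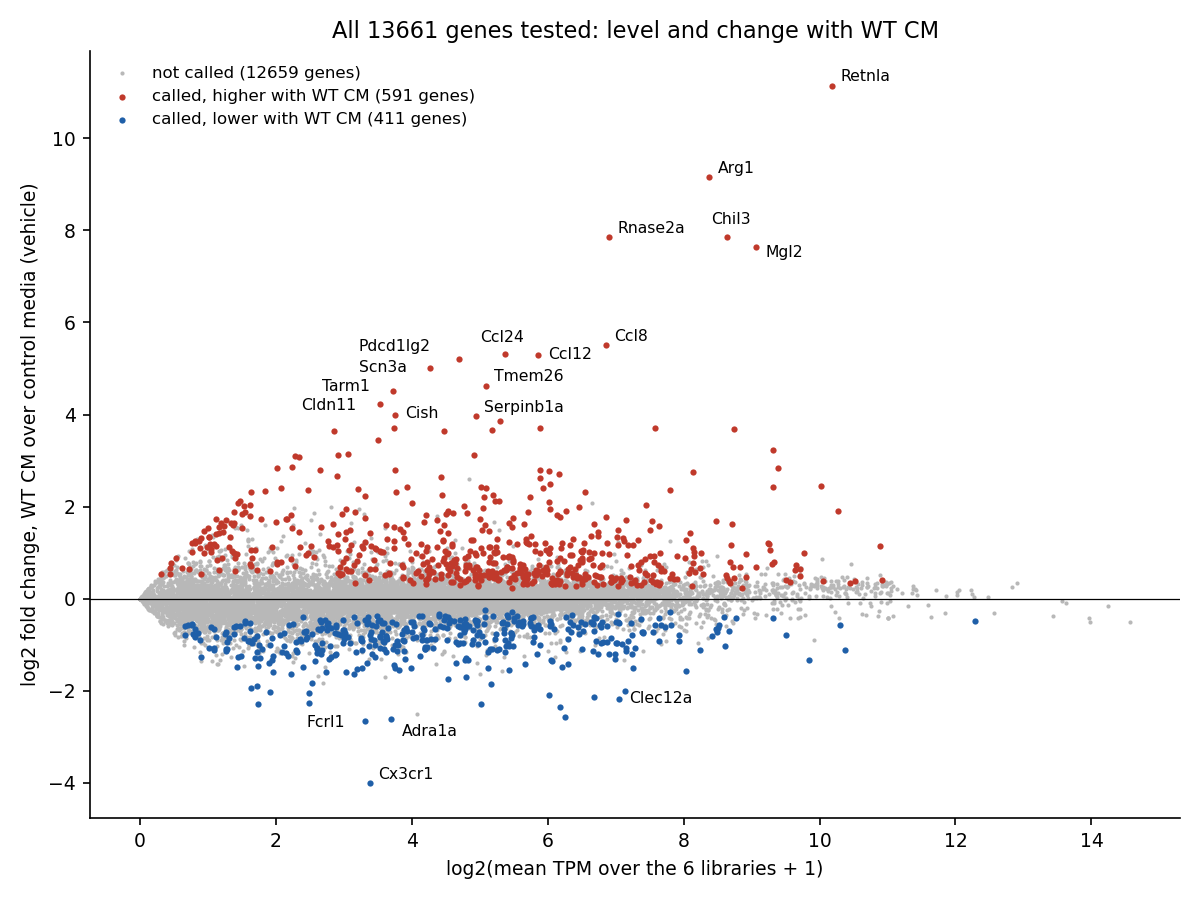
Each point is 1 of 13661 genes, with log2 of its mean TPM plus 1 over the 6 libraries on the x axis and its log2 fold change, WT CM over control media, on the y axis. Red points mark the 591 genes called higher and blue points the 411 called lower, and the named rises stand far above the rest of the genes, with Cx3cr1 the lowest point at -4.00. Retnla and Rnase2a were listed at 0 TPM in every naïve library, so their height depends on the pseudocount.

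Many of the genes that rose most encode products of alternatively activated macrophages. Of 36 genes tested from a list of alternative activation genes, 29 were higher with WT CM (80.6%, against 4.33% over all genes tested) and 0 were lower. At an unadjusted p under 0.05 the counts were 31 and 0. The list's median log2 fold change was 2.46, against 0.01 over all genes tested. Between 28 and 29 members were called higher when 1 of the 6 libraries was left out. With only the 2 groups and the replicate block in the fit, 31 of 35 were higher and 3 were lower. Tmem26, a membrane protein on this list, rose from between 1.55 and 1.97 TPM to between 58.5 and 72.8 TPM. The list was drawn up with these results known and is a description of the genes, not independent evidence of their direction.

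Secreted products led the rises. Retnla (chromosome 16 of mouse genome GRCm39, 48662895 to 48664824) encodes a resistin-like protein, and was listed at 0 TPM in each naïve library and at 1990, 1750 and 3260 TPM with WT CM. Chil3 (chromosome 3, 106054870 to 106074880), which encodes the chitinase-like protein Ym1, was at 1.09, 3.87 and 2.31 TPM in naïve BMDMs and at 461, 668 and 1260 TPM with WT CM. The log2 fold change of Chil3 was 7.87 (SE 0.44, adjusted p = 2.6e-10), and WT/vehicle replicate 3 was the highest library for both genes. The neighbouring paralog Chil4 was listed at 0 TPM in all naïve libraries and between 5.12 and 6.94 TPM with WT CM, although Kallisto divides reads between such similar transcripts. Rnase2a, of the eosinophil-associated ribonuclease family, was likewise listed at 0 TPM in naïve BMDMs and at 273, 291 and 149 TPM with WT CM. Its relative Ear2 rose from between 2.76 and 5.77 TPM to between 61.1 and 83.8 TPM (log2 fold change 3.86, adjusted p = 2.5e-08). The ribonuclease genes Ang and Rnase4, which share a locus and whose reads may be divided between them, rose by 2.80 and 2.75 on the log2 scale (adjusted p = 4.7e-09 and 2.1e-08). Of 8 eosinophil markers, 6 were at or under 1 TPM in all 6 libraries, among them the granule protein genes Prg2, Prg3 and Epx. The other markers were the chemokine receptor gene Ccr3, at 3.79 to 6.72 TPM in naïve and 5.19 to 7.32 TPM in WT/vehicle BMDMs, and Siglecf, at 3.76 to 6.53 and 2.07 to 2.6 TPM.

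Genes for the import and splitting of arginine rose. Arg1 (chromosome 10, 24791118 to 24803817), which encodes the enzyme that splits arginine into ornithine and urea, was at 0.0884, 0.301 and 0.128 TPM in naïve BMDMs and at 681, 765 and 544 TPM with WT CM. Its log2 fold change was 9.15 (SE 0.21, adjusted p = 1.6e-16), with every naïve library near 0 and no overlap between the groups. Slc7a2, an arginine transporter, rose from between 5.22 and 5.64 TPM to between 47.5 and 64 TPM (log2 fold change 3.13, SE 0.26, adjusted p = 8.2e-08). Slc7a1, another transporter of cationic amino acids, rose by 0.65 (adjusted p = 0.0066). Of 23 genes tested for arginine and polyamine metabolism, 4 were higher (17.4%, against 4.33% over all genes tested) and 0 lower. The median of 0.17 was close to that of all genes. Genes of polyamine synthesis changed less. Odc1, the rate-limiting enzyme of polyamine synthesis, was at 39 to 45.5 TPM in naïve and 49.2 to 55.8 TPM in WT/vehicle BMDMs (log2 fold change 0.36, adjusted p = 0.1), and Amd1 rose by 0.31 (adjusted p = 0.048), a call that was lost whichever of the 6 libraries was left out (adjusted p from 0.081 to 0.21). Nos2, whose product competes for arginine, was at most 0.117 TPM in all 6 libraries.

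Among receptors for sugars and immune complexes, some rose and some fell. Mgl2 (chromosome 11, 70020954 to 70028376), a galactose-type lectin, was at 4.27, 5.33 and 3.15 TPM in naïve BMDMs and at 1390, 1150 and 620 TPM with WT CM (log2 fold change 7.65, SE 0.45, adjusted p = 5.3e-10). Its paralog Clec10a and the mannose receptor gene Mrc1 also rose, and the groups overlapped for none of these lectins. Of 25 C-type lectin receptors tested, 6 were higher (24.0%) and 2 were lower (8.0%), against 4.33% and 3.01% over all genes tested. The largest fall among them was in Clec12a, an inhibitory receptor, from between 206 and 225 TPM to between 41.2 and 48.9 TPM (log2 fold change -2.18, SE 0.27, adjusted p = 1.5e-05). Fcgr2b (chromosome 1, 170786186 to 170804177), the inhibitory Fc gamma receptor, was at 104, 117 and 164 TPM in naïve BMDMs and at 1140, 1060 and 1220 TPM with WT CM (log2 fold change 3.23, SE 0.38, adjusted p = 9.8e-06). The activating receptor genes Fcgr4 and Fcgr1 moved less and in opposite directions, Fcgr4 by 1.16 (adjusted p = 0.0098) and Fcgr1 by -0.66 (adjusted p = 0.0081). Without WT/vehicle replicate 3 the change of Fcgr4 was 1.00 (adjusted p = 0.06), and without media/vehicle replicate 3 that of Fcgr1 was -0.58 (adjusted p = 0.051). In the list of Fc receptors and complement, 6 of 26 genes were higher (23.1%) and 1 was lower (3.8%). C3, the central complement component, rose by 2.41 and Cfp, which encodes properdin, by 1.63 (adjusted p = 6.4e-05 and 0.00011).

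The receptors and signaling genes upstream of alternative activation were examined by role. Of the ligand genes, Il4 was not called and Il13 was near 0. Both are on the list of basophil and mast cell markers, and which cells of the cultures held the Il4 transcripts was not tested. Il4 was at 18, 19.3 and 24.6 TPM in naïve BMDMs and at 15, 13.8 and 18.5 TPM with WT CM (log2 fold change -0.30, adjusted p = 0.8), and Il13 was listed at 0 TPM in 5 of the 6 libraries and at 0.128 TPM in WT/vehicle replicate 3. The receptor subunits moved apart. Il4ra (chromosome 7, 125151079 to 125182844), the chain shared by IL-4 and IL-13 receptors, was at 59.2, 56.4 and 63.6 TPM in naïve BMDMs and at 140, 127 and 95.3 TPM with WT CM (log2 fold change 1.05, SE 0.13, adjusted p = 2.1e-05). Il13ra1, which pairs with it to bind IL-13, was lower, at 8.7, 9.75 and 5.03 TPM against 14.6, 16.5 and 13 TPM (log2 fold change -0.81, adjusted p = 0.011). That call was lost without WT/vehicle replicate 3 (-0.57, adjusted p = 0.081) and without media/vehicle replicate 2 (-0.74, adjusted p = 0.059). Il13ra2 (chromosome X, 146166035 to 146212188), a decoy receptor for IL-13, was at no more than 0.0468 TPM in naïve BMDMs and at 13.7, 16 and 7.39 TPM with WT CM (log2 fold change 3.65, adjusted p = 1e-10). The common gamma chain gene Il2rg was higher in each WT/vehicle library than in each naïve library, at 100 to 130 TPM against 65.1 to 87.1 TPM, without passing the test (log2 fold change 0.60, adjusted p = 0.1).

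Among the kinases and STATs, Jak2 and Stat2 rose while Stat6 did not. Jak2 was at 20, 21.9 and 19.4 TPM in naïve BMDMs and at 40.7, 43.9 and 43.6 TPM with WT CM (log2 fold change 1.09, SE 0.13, adjusted p = 9.8e-06). Stat2, a factor of interferon signaling, rose by 0.77 (adjusted p = 0.00015). Stat6 was lower in each WT/vehicle library than in each naïve library, at 111 to 116 TPM against 133 to 143 TPM, but was not called (log2 fold change -0.20, adjusted p = 0.4). Jak1 and Stat3 had log2 fold changes of 0.12 and 0.14, neither past the threshold (adjusted p = 0.65 and 0.84).

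Feedback inhibitors of cytokine signaling also rose. Socs1 (chromosome 16, 10600104 to 10603875), which blocks JAK activity, was at 1.2, 0.978 and 0.652 TPM in naïve BMDMs and at 22.3, 23.1 and 25.8 TPM with WT CM (log2 fold change 3.71, SE 0.21, adjusted p = 2.4e-10). Cish (chromosome 9, 107173225 to 107179983), a target and inhibitor of STAT5 signaling, was at 0.774, 0.536 and 0.52 TPM in naïve BMDMs and at 19.2, 22.3 and 31.7 TPM with WT CM (log2 fold change 3.98, SE 0.31, adjusted p = 3.9e-08). The WT/vehicle libraries were far above the naïve libraries for both. Socs2 rose by 1.02 (adjusted p = 0.014, but 0.078 without WT/vehicle replicate 3 and 0.068 without media/vehicle replicate 2). Socs3, which acts on IL-6 family signals, was at 8.19 to 16.5 TPM in naïve and 11.4 to 27.6 TPM in WT/vehicle BMDMs, with overlap between the groups (adjusted p = 0.56). In the whole list of JAK, STAT and SOCS genes, 5 of 24 were higher (20.8%) and 2 were lower (8.3%), against 4.33% and 3.01% over all genes tested. The genes called lower were Pias3 and the phosphatase gene Ptpn6. The call on Pias3 was lost whichever of the 6 libraries was left out, and that on Ptpn6 without WT/vehicle replicate 1 or 2 or media/vehicle replicate 1 (adjusted p from 0.056 to 0.084).

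**Figure D2:**
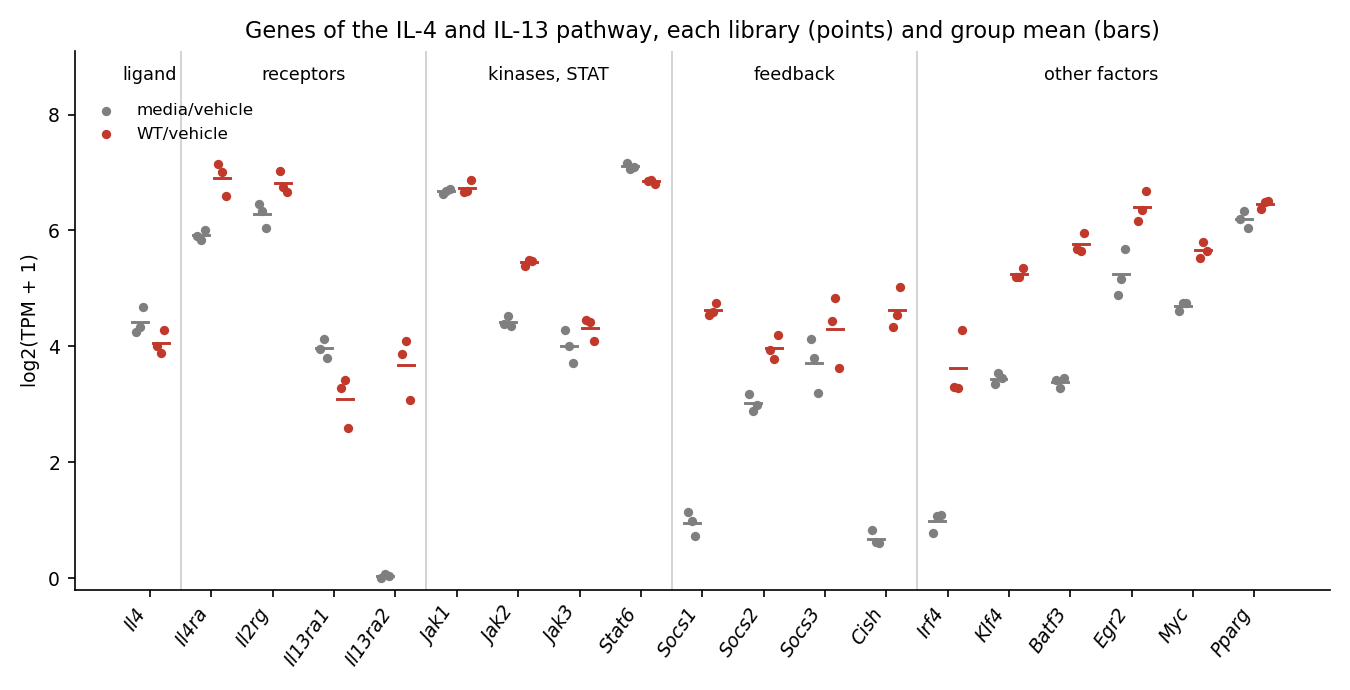
Points show log2(TPM + 1) in each of the 3 media/vehicle (gray) and 3 WT/vehicle (red) libraries, with bars at the group means, for genes of the IL-4 and IL-13 pathway ordered by role. Socs1, Cish, Il13ra2 and Irf4 lie near the bottom in naïve BMDMs and well above it with WT CM, while Il4, Jak1 and Stat6 stay within 1 unit of their naïve levels.

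Several transcription factors linked to alternative activation rose. Irf4 (chromosome 13, 30933209 to 30950959), induced by IL-4 in macrophages, was at 0.724, 1.1 and 1.14 TPM in naïve BMDMs and at 8.83, 8.79 and 18.4 TPM with WT CM (log2 fold change 2.67, SE 0.29, adjusted p = 2.7e-06). Klf4, which cooperates with STAT6, was at 9.15, 10.6 and 9.93 TPM in naïve BMDMs and at 35.5, 35.8 and 39.7 TPM with WT CM (log2 fold change 1.86, SE 0.17, adjusted p = 4e-07). Naïve and WT/vehicle libraries did not overlap for either gene. Batf3, Nfil3 and Tfec rose by 2.43, 2.26 and 2.12 (adjusted p = 1.2e-05, 2.7e-07 and 0.00091). Smaller rises were found in Egr2 by 1.22 and in Myc by 1.02 (adjusted p = 0.00085 and 0.00078). Pparg, a nuclear receptor of lipid metabolism, was at 65.2 to 79.5 TPM against 81.8 to 90.3 TPM, with no overlap and a change of 0.33 on the log2 scale that missed the threshold (adjusted p = 0.11). Over 65 macrophage transcription factors, 13 were higher (20.0%) and 4 were lower (6.2%), against 4.33% and 3.01% over all genes tested.

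The sequences upstream of genes that rose were searched for TTCNNNNGAA, the spacing that STAT6 dimers favor over the shorter TTCNNNGAA of other STATs. Each motif is its own reverse complement, so a search of 1 strand covers both, and a window may hold both motifs. In windows from 250 bases before to 50 bases after the annotated start on GRCm39, 6.8% of 21735 promoters and 6.07% of those of tested genes held the longer motif. The share was 7.53% for genes higher with WT CM (43 of 571) and 4.43% for genes lower (18 of 406), and the shorter motif was in 9.63% and 6.4% of them against 7.62% of tested genes. In the alternative activation list 8 of 36 windows (22.2%) held the longer motif and 6 (16.7%) the shorter. Among the 15 largest rises 4 windows (26.7%) held the longer motif, as did 2 of 13 windows (15.4%) among the 15 largest falls. Stretches of 4 of these promoters are shown since their genes had some of the largest rises or encode feedback inhibitors, with each TTCNNNNGAA match in capitals. All lie upstream of the start and read 5′ to 3′ along the strand of the gene.
Retnla, chr16:48662782-48662881, plus strand: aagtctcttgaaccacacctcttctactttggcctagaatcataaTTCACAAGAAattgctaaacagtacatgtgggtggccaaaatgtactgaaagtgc
Pdcd1lg2, chr19:29388192-29388291, plus strand: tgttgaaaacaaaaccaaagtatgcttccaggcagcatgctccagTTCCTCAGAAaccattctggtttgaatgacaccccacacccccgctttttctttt
Cish, chr9:107172975-107173053, plus strand: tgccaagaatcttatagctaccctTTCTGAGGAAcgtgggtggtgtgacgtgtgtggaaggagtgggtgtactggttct
Socs1, chr16:10603909-10604092, minus strand: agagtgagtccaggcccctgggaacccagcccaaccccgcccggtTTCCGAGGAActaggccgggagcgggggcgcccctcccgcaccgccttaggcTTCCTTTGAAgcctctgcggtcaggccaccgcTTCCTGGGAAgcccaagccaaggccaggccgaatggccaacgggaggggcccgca

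The match in Retnla began 68 bases before the start, that in Pdcd1lg2 82 bases and that in Cish 226 bases, while Socs1 had 3 matches, from 172 to 88 bases before it. These are letters found in a window and say nothing of binding. Arg1 had no match of either motif in its window, which does not speak to more distant sites.

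Chemokine genes changed in 2 directions. Of 26 CC and CXC chemokines tested, 11 were higher with WT CM (42.3%) and 3 were lower (11.5%), against 4.33% and 3.01% over all genes tested. Among those that rose were CC chemokines that attract monocytes, eosinophils and T helper cells. Ccl8 was at 4.13, 3.01 and 4.76 TPM in naïve BMDMs and at 305, 226 and 143 TPM with WT CM (log2 fold change 5.51, SE 0.34, adjusted p = 1.2e-09). Ccl24, an eotaxin, was at 1.23, 1.34 and 0.601 TPM in naïve BMDMs and at 81.2, 54.6 and 104 TPM with WT CM (log2 fold change 5.31, SE 0.23, adjusted p = 4.9e-12). For each gene the lowest WT/vehicle library was far above the highest naïve library. Ccl12 rose by 5.30 and Ccl2 by 1.72 (adjusted p = 6.2e-08 and 0.00077), and Ccl11 went from 0, 0.0384 and 0 TPM to 8.55, 6.75 and 7.88 TPM, though these neighbours on chromosome 11 are similar in sequence and reads may be divided between them. Ccl6 and Ccl9 were already abundant and rose further, Ccl6 from between 279 and 373 TPM to between 1520 and 2100 TPM and Ccl9 from between 181 and 249 TPM to between 1030 and 1100 TPM. Ccl17, a classical product of IL-4 treated cells, was listed at 0 TPM in all naïve libraries and at 0.823, 0.924 and 7.48 TPM with WT CM, a difference that passed with all 6 libraries (adjusted p = 0.022) and not when any 1 of the naïve libraries was left out (adjusted p from 0.063 to 0.071). WT/vehicle replicate 3 held most of the signal, and without it Ccl17 did not pass the filter on low values and was not tested.

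The chemokines that fell are products of inflammatory activation or attract T cells. Ccl3 was at 110, 116 and 117 TPM in naïve BMDMs and at 40.7, 32.7 and 49.5 TPM with WT CM (log2 fold change -1.41, SE 0.25, adjusted p = 0.001). Cxcl16 fell from between 131 and 146 TPM to between 52.5 and 70 TPM (log2 fold change -1.13, adjusted p = 0.0014). Cxcl10 was low in both groups, at no more than 2.01 TPM, and its fall of -1.26 (adjusted p = 0.017) was lost without WT/vehicle replicate 2 or 3 or media/vehicle replicate 1 or 3 (adjusted p from 0.051 to 0.086).

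**Figure D3:**
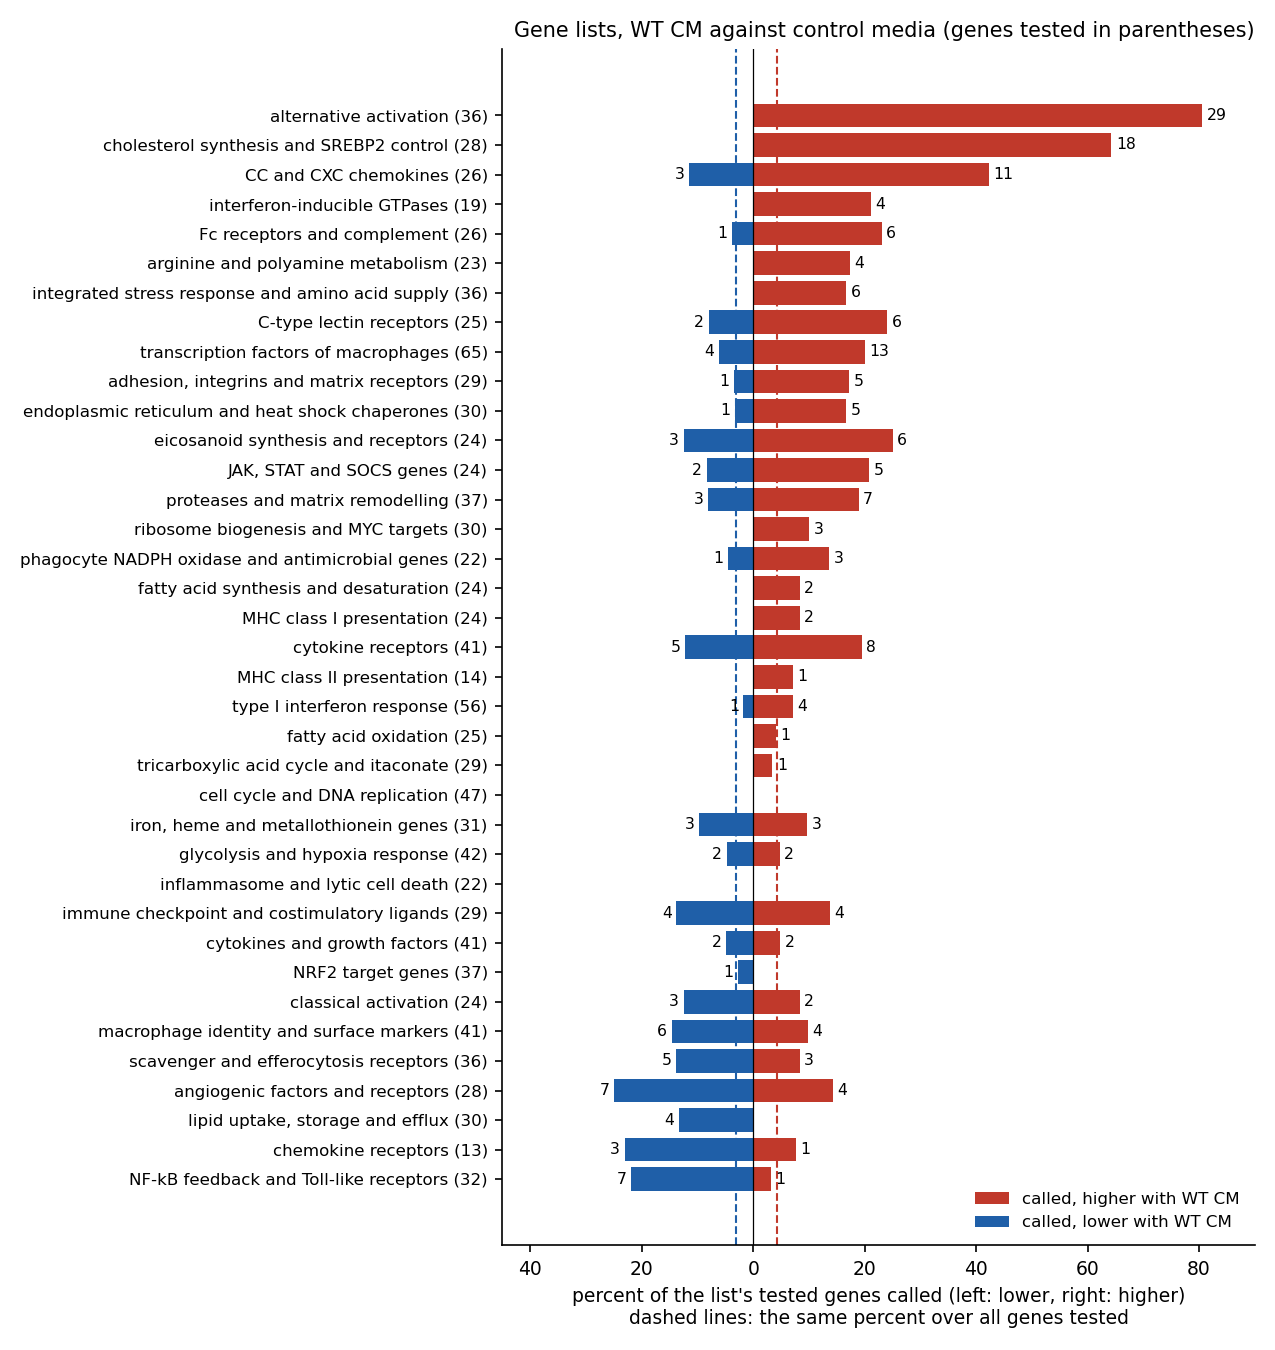
Bars give, for each gene list, the percent of its tested genes called higher (red, to the right) or lower (blue, to the left) with WT CM, with the number of genes at the bar's end and the number tested in parentheses. Dashed lines mark the same percent over all genes, 4.33% higher and 3.01% lower, and the bars for alternative activation (29 of 36) and cholesterol synthesis (18 of 28) reach farthest to the right.

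Cx3cr1, the fractalkine receptor, fell most of all genes. It was at 20.3, 20.4 and 15.6 TPM in naïve BMDMs and at 0.268, 0.155 and 0.121 TPM with WT CM (log2 fold change -4.00, SE 0.36, adjusted p = 2.7e-07). Among 13 chemokine receptors tested, Cxcr4 and Ccrl2 were the others called lower and Ccr1 the only one called higher. With Cx3cr1 this was 23.1% lower and 7.7% higher, against 3.01% and 4.33% over all genes tested. Cxcr4, the receptor of CXCL12, was at 168, 151 and 222 TPM against 60.3, 49.2 and 104 TPM (log2 fold change -1.32, adjusted p = 0.021), and its adjusted p rose to between 0.058 and 0.12 without WT/vehicle replicate 1 or 2 or media/vehicle replicate 1 or 3. Ccr1 rose by 2.13 (adjusted p = 0.018), and was not called without WT/vehicle replicate 3 or media/vehicle replicate 1 or 2 (adjusted p from 0.076 to 0.11). The call on Ccrl2 was lost whichever of the 6 libraries was left out.

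Among genes for sensing microbes more were called lower than higher, while genes of classical activation were called in both directions. Of 32 Toll-like receptors and NF-kB feedback genes, 1 was higher (3.1%) and 7 were lower (21.9%), against 4.33% and 3.01% over all genes tested. Tlr2 (chromosome 3, 83743576 to 83749074), a receptor for bacterial lipoproteins, was at 40.1, 40 and 45.2 TPM in naïve BMDMs and at 12.3, 12 and 10.7 TPM with WT CM (log2 fold change -1.69, SE 0.27, adjusted p = 0.00035). Tlr4, the receptor for lipopolysaccharide, moved the other way, from 43.1, 43 and 44.8 TPM to 83.7, 84.1 and 85.1 TPM (log2 fold change 1.00, SE 0.14, adjusted p = 0.00011). Replicates of both receptors lay far closer together than the groups did. Tlr13, a sensor of bacterial ribosomal RNA, fell by 1.19, Cd180, a TLR4 homolog, by 1.07 and Nfkbiz, a cofactor of NF-kB, by 1.53 (adjusted p = 0.00026, 0.0023 and 1.4e-05). Tnf was at 12.9, 13.9 and 13.4 TPM in naïve BMDMs and at 3.79, 4.07 and 3.79 TPM with WT CM (log2 fold change -1.50, SE 0.24, adjusted p = 0.00039). In the list of classical activation, 2 of 24 genes (8.3%), Ccl2 and Cd40, were higher and 3 (12.5%), Tnf, Ccl3 and Cxcl10, were lower. With the replicate block the counts were 4 and 6. Il1b was at most 1.61 TPM and Il6 at most 0.491 TPM in the 6 libraries (adjusted p = 0.99 for each). No gene of 22 tested for inflammasomes and lytic cell death was called by limma, with 1 higher and 3 lower at an unadjusted p under 0.05, 1 higher and 2 lower called with the replicate block, and 0 and 2 without scaling.

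Tgfbr1, Ccn2 and Acta2 were lower with WT CM. Tgfbr1, which encodes a receptor of TGF-beta, was at 106, 116 and 105 TPM in naïve BMDMs and at 37.7, 37.3 and 34.7 TPM with WT CM (log2 fold change -1.48, SE 0.14, adjusted p = 6.5e-07). Ccn2, a matricellular growth factor, was at 136, 192 and 174 TPM against 28.3, 44.7 and 34.1 TPM (log2 fold change -2.14, SE 0.42, adjusted p = 0.0024). All naïve libraries were above all WT/vehicle libraries for both genes. Acta2, smooth muscle actin, fell from 379, 435 and 367 TPM to 114, 142 and 123 TPM (log2 fold change -1.57, SE 0.33, adjusted p = 0.005). Fibroblasts express Ccn2 and Acta2, and the summed level of fibroblast markers was also lower with WT CM in each same-numbered pair, as given above. The part of fibroblasts in the falls of these genes was not tested.

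**Figure D4:**
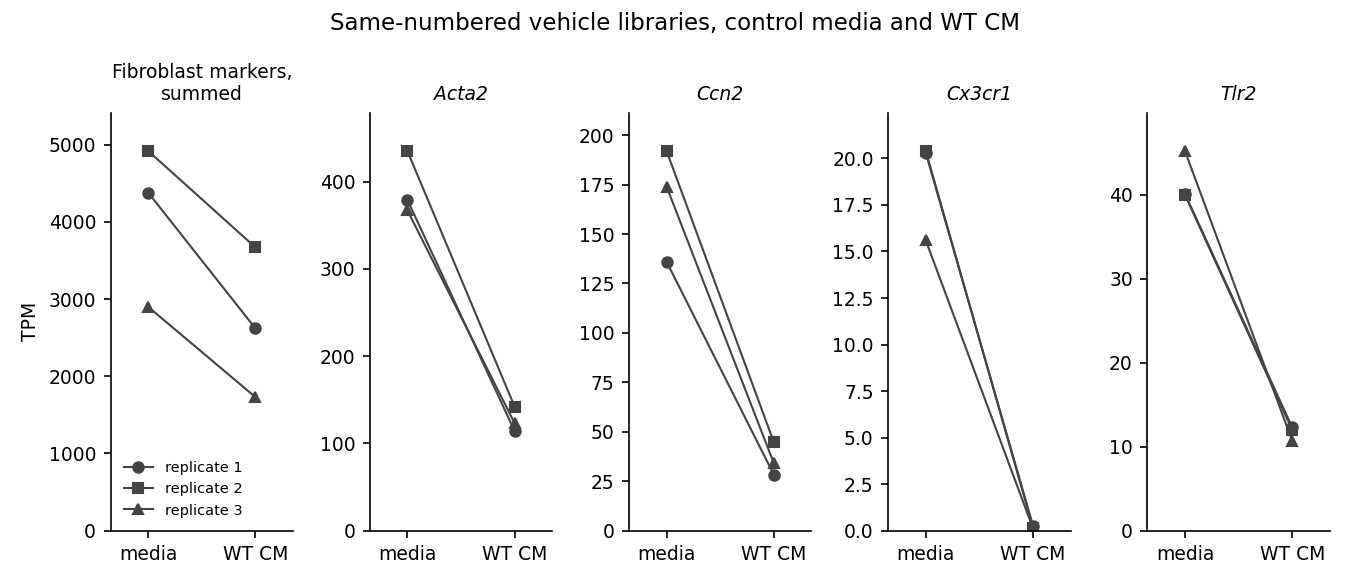
Lines join the media/vehicle and WT/vehicle libraries of the same replicate number, with TPM on y axes that start at 0, for the summed fibroblast markers and 4 genes. Every line falls from media to WT CM, and the fibroblast sums of the groups overlap (2900 to 4920 TPM against 1730 to 3670 TPM) while no single gene shown does.

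Other surface and matrix genes moved in both directions. Of 28 angiogenic factors and receptors tested, 4 were higher (14.3%) and 7 were lower (25.0%), against 4.33% and 3.01% over all genes tested. The median was -0.32. The counts were 4 and 3 without WT/vehicle replicate 3, 3 and 4 without media/vehicle replicate 1 and 3 and 3 without media/vehicle replicate 2. Sema4d, a semaphorin, was at 235, 210 and 235 TPM in naïve BMDMs and at 74.8, 63.2 and 93.1 TPM with WT CM (log2 fold change -1.50, SE 0.18, adjusted p = 1.2e-05). The integrin gene Itga6 fell by 1.33 and Itgb3 rose by 1.73 (adjusted p = 2.4e-06 and 4.5e-05). Flt1, a receptor of VEGF, rose from at most 0.567 TPM to between 5.7 and 6.66 TPM, and Edn1, which encodes endothelin 1, rose by 1.57 (adjusted p = 0.0014), while Vegfa was at 83.4 to 113 TPM in naïve and 61.9 to 91 TPM in WT/vehicle BMDMs with overlap between the groups (adjusted p = 0.53). Of 37 proteases and matrix genes, 7 were higher (18.9%) and 3 were lower (8.1%). Among the rises were Cst7, an inhibitor of cathepsins, by 3.63 and Adam8 by 1.21 (adjusted p = 8.1e-06 and 0.00037). Ms4a4a, a membrane protein of alternatively activated macrophages, was at 43, 46.2 and 113 TPM in naïve BMDMs and at 845, 558 and 953 TPM with WT CM (log2 fold change 3.70, SE 0.59, adjusted p = 0.00037).

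Ligands that regulate T cells were called in both directions. Pdcd1lg2 (chromosome 19, 29388319 to 29448882), which encodes PD-L2, was at 0.264, 0.114 and 0.65 TPM in naïve BMDMs and at 42.7, 34.8 and 70.5 TPM with WT CM (log2 fold change 5.20, SE 0.29, adjusted p = 2.6e-10). Cd274, which encodes PD-L1, was at 24.7, 22.8 and 24.7 TPM against 45.8, 39.7 and 58.9 TPM (log2 fold change 1.02, adjusted p = 0.044), a call that was lost whichever of the 6 libraries was left out (adjusted p from 0.055 to 0.19). Over 29 checkpoint and costimulatory genes, 4 were higher and 4 were lower (13.8% each), against 4.33% and 3.01% over all genes tested. The counts were 7 and 7 with the replicate block, 4 and 8 without scaling and 6 and 9 with only the 2 groups in the fit. Havcr2, which encodes TIM-3, fell by 1.12 and Siglece by 1.45 (adjusted p = 0.0028 and 0.00066). The number of antigen presentation genes called depended on the setting. The share called higher was 7.1% for class II and 8.3% for class I genes, against 4.33% over all genes tested. Of 14 class II genes 1, H2-DMa, was called higher, against 3 with the replicate block and 4 with array weights. It rose by 1.18 (adjusted p = 0.0095, but 0.07 without WT/vehicle replicate 3 and 0.059 without media/vehicle replicate 2), while Cd74 was at 1060, 1020 and 1140 TPM against 1340, 1020 and 2140 TPM (adjusted p = 0.44). Of 24 class I genes, Psmb10 and Psme2 were called, Psmb10 with none and Psme2 with 1 of the 6 libraries left out, WT/vehicle replicate 2, and neither was called without scaling. By contrast, 12 class I genes were higher and 1 lower with array weights, and 7 higher and 0 lower with only the 2 groups in the fit. Without the 2 libraries with the fewest genes, 8 were higher and 0 lower. Among 56 type I interferon response genes 4 were higher (7.1%) and 1, Ifit3, was lower (1.8%), against 4.33% and 3.01% over all genes tested. With the block the counts were 7 and 1. Ifit3 was not called without WT/vehicle replicate 1 or 2 or media/vehicle replicate 1 or 3 (adjusted p from 0.055 to 0.092). The rises included Ms4a6d, by 1.68, and Zbp1, by 1.62 (adjusted p = 6.2e-06 and 0.00054). Of 19 interferon-inducible GTPases 4 were higher (21.1%) and 0 lower. Of these, Gvin1, up by 1.92, and Ifi47, up by 1.18 (adjusted p = 4.8e-08 and 0.0002), were called whichever of the 6 libraries was left out. With 1 library left out, Gbp7 and Iigp1 were called only without WT/vehicle replicate 2.

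Genes for sterol synthesis rose together by small amounts. Of 28 genes tested for cholesterol synthesis and its control by SREBP2, 18 were higher with WT CM (64.3%, against 4.33% over all genes tested) and 0 were lower. At an unadjusted p under 0.05, 21 were higher and 1 was lower, and the median was 0.66. The number called higher was between 11 and 16 without 1 of the 6 libraries, and 11 without media/vehicle replicate 1. Changes among the 18 ran from 0.48 for Msmo1 to 1.27 for Acat2. Fdps, which makes farnesyl pyrophosphate, was at 85, 95 and 95.4 TPM in naïve BMDMs and at 195, 203 and 191 TPM with WT CM (log2 fold change 1.16, SE 0.16, adjusted p = 5.3e-05). Scd2, a fatty acid desaturase, rose by 1.34 (adjusted p = 8e-05) and Acly by 0.47 (adjusted p = 0.014). These were the 2 of 24 fatty acid synthesis genes that were called (8.3%), against 6 with the replicate block. Acly was not called without scaling (adjusted p = 0.12), WT/vehicle replicate 1 (0.051) or media/vehicle replicate 2 (0.057). Some genes that export or take up lipids fell. Abca1, a cholesterol exporter, was at 42.4, 42.3 and 39.8 TPM in naïve BMDMs and at 20, 20.3 and 18.4 TPM with WT CM (log2 fold change -0.99, SE 0.09, adjusted p = 2e-07). In that list 4 of 30 genes were lower (13.3%, against 3.01% over all genes tested) and 0 were higher, and the median was -0.40. At an unadjusted p under 0.05, 13 were lower and 0 higher, and with the replicate block 12 were lower and 1 higher. Without WT/vehicle replicate 1 the counts were 2 lower and 0 higher.

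Iron genes changed at uptake and export. Tfrc, the transferrin receptor, was at 82.1, 99.6 and 108 TPM in naïve BMDMs and at 182, 203 and 235 TPM with WT CM (log2 fold change 1.16, SE 0.17, adjusted p = 0.00012). Slc40a1, which encodes the iron exporter ferroportin, was at 100, 93.8 and 94.7 TPM against 41.8, 30.8 and 35.1 TPM (log2 fold change -1.34, SE 0.25, adjusted p = 0.0018). The list as a whole had 3 of 31 genes higher and 3 lower (9.7% each), against 4.33% and 3.01% over all genes tested. For NRF2 target genes in the macrophages the count depended on the setting. Of 37 tested, 0 were higher and 1, Srxn1, was lower (2.7%, against 3.01% over all genes tested). It was 0 and 9 at an unadjusted p under 0.05, and 1 and 3 with the replicate block. The counts were 0 higher and 6 lower without scaling, 0 and 4 with a filter at a mean of 5 TPM, and 0 and 11 with only the 2 groups in the fit. The call on Srxn1 was lost whichever of the 6 libraries was left out. Hmox1, heme oxygenase, was at 365 to 382 TPM in naïve and 318 to 370 TPM in WT/vehicle BMDMs (adjusted p = 0.97).

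The share of stress genes called higher was above that over all genes tested, while no cell cycle gene passed. Of 36 genes of the integrated stress response and amino acid supply, 6 were higher (16.7%, against 4.33% over all genes) and 0 lower. With the replicate block 11 were higher. Only 3 were called without WT/vehicle replicate 1 or 2 or media/vehicle replicate 1, and 2 without media/vehicle replicate 2. Mthfd2, a mitochondrial folate enzyme, rose by 1.12 (adjusted p = 0.003) and Pdia4, a folding enzyme of the endoplasmic reticulum, by 1.59 (adjusted p = 6.7e-05). Among 30 chaperones, 5 were higher (16.7%) and 1 was lower (3.3%, against 3.01% over all genes). The counts were 10 and 2 with the block, 2 and 0 without scaling, and 3 and 0 without WT/vehicle replicate 1 or 2 or media/vehicle replicate 1 or 3. No gene of 47 tested for cell cycle and DNA replication passed in limma, with 4 at an unadjusted p under 0.05, all higher, and 2 higher and 1 lower with the block, and the median was 0.24. Of 24 eicosanoid genes, 6 were higher (25.0%) and 3 were lower (12.5%), against 4.33% and 3.01% over all genes. Without media/vehicle replicate 1 the counts were 3 and 2. Ptgs1, cyclooxygenase 1, was at 18.8, 13.3 and 27.4 TPM in naïve BMDMs and at 111, 81.2 and 135 TPM with WT CM (log2 fold change 2.49, SE 0.29, adjusted p = 8.6e-06), and the prostacyclin receptor gene Ptgir rose by 1.88 (adjusted p = 1.5e-05).

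BMDMs given CM of NRF2 KO or KEAP1 KO LL2 cells, which were made by gene editing, were set beside these groups. The library names give a single code for each KO, so the edited gene and other differences of that line cannot be told apart. The comparisons share the WT/vehicle libraries, so they are not independent. Against NRF2 KO/vehicle, 1455 of 13661 genes were called (10.7%), 896 higher and 559 lower with WT CM, but only 162 when the libraries of the other groups were left out of the fit, 811 without WT/vehicle replicate 3 and 2429 without NRF2 KO/vehicle replicate 1. Without scaling the split was 610 higher and 769 lower. Calls were 2564 with the replicate block. NRF2 KO/vehicle replicate 3 had 15702 genes above 0 TPM, against 18341 and 18625 in replicates 1 and 2. Calls were 1148 without that library, and 2093 without the 2 libraries of the series with the fewest genes, of which it is 1. Retnla was listed at 0 TPM in all 3 NRF2 KO/vehicle libraries. Arg1 was at 0.632 ± 0.625 TPM there (SD, n = 3), Chil3 at 1.69 ± 0.732 TPM, Mgl2 at 7.34 ± 3.51 TPM and Socs1 at 0.646 ± 0.485 TPM, each below all WT/vehicle libraries. Cx3cr1 was at 10.8 ± 5.28 TPM. Log2 differences of WT from NRF2 KO CM were 8.72 for Arg1 (adjusted p = 3.9e-16), 2.55 for Fcgr2b (adjusted p = 0.00018) and -3.18 for Cx3cr1 (adjusted p = 7e-06). Ednrb, an endothelin receptor, rose against naïve BMDMs by 2.65 (adjusted p = 0.001) but differed from NRF2 KO CM by 0.95 (adjusted p = 0.2), with NRF2 KO/vehicle libraries at 21.5 ± 16.6 TPM (SD, n = 3), which does not show that the levels were alike. Against KEAP1 KO/vehicle no gene passed in limma (0%), with 341 of 13661 at an unadjusted p under 0.05. The 95% interval of the log2 difference, WT minus KEAP1 KO CM and not adjusted for the number of genes, was -0.98 to -0.07 for Arg1, 0.22 to 0.96 for Retnla, -0.49 to 1.42 for Mgl2 and -0.56 to 0.75 for Cish. A difference that misses the threshold does not show that the 2 CM acted alike.

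**Figure D5:**
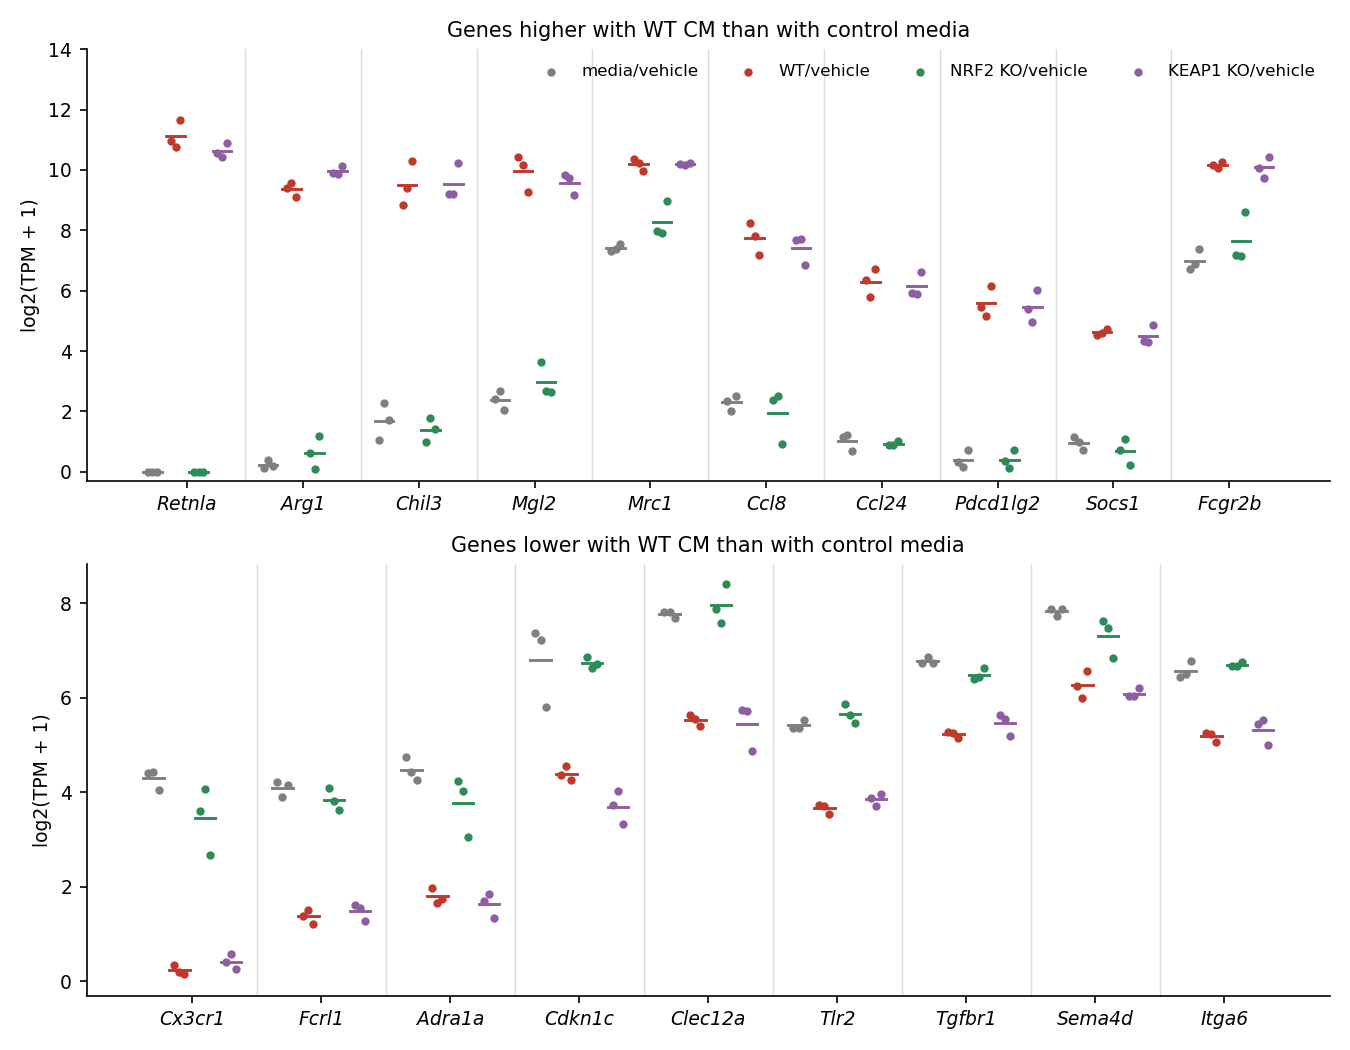
Points give log2(TPM + 1) in each library and bars the group means for genes called higher (top) and lower (bottom) with WT CM, in media/vehicle (gray), WT/vehicle (red), NRF2 KO/vehicle (green) and KEAP1 KO/vehicle (purple) BMDMs. Bars for WT and KEAP1 KO CM lie closer to each other than to the media bar for every gene shown. NRF2 KO bars lie closer to media than to WT CM, with wide scatter between libraries for Cx3cr1 and Adra1a, and Retnla is at 0 in all media and NRF2 KO libraries.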

How the data were processed

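RNA-sequencing libraries of 24 samples in 8 groups of 3 were used, of which 6 entered the comparison. The authors pseudoaligned reads with Kallisto to GRCm39 transcripts and deposited TPM per gene in 1 table, scaled to the same total in each library, so depth is unknown and counting error could not be given. No read count was recovered. A single line without a gene name was left out. TPM were divided by trimmed mean factors (0.963 to 1.06 in the 6 libraries), a pseudocount of 1 was added and log2 was taken. Genes above 1 TPM in at least 3 of 24 libraries (13661 of 35770) were fitted with limma 3.58.1 in R 4.3.3, with 8 groups sharing 1 variance per gene (16 residual degrees of freedom), a mean-variance trend and Benjamini-Hochberg adjustment over all genes tested, and called at adjusted p under 0.05. The procedure was tested on simulated data. Promoter sequences were read from GRCm39, and figures were drawn with matplotlib 3.10.9.

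Deviations from group means correlated across genes at 0.14, 0.25 and 0.39 between same-numbered libraries, and at -0.29 to 0.10 between others. The 0.14 of replicate 1 was close to the 0.10 between media/vehicle replicate 1 and WT/vehicle replicate 2. The replicate numbers were taken to pair the samples in the fits with the replicate block and where same-numbered libraries are compared. The reported fit left them out, so a gene that it did not call may be called with the block. Where separate mice are not stated, p-values measure only the spread between these samples, which may be technical. Genes were named from the 15 largest rises and 15 largest falls that were called with a mean of at least 1 TPM and no overlap between groups, from up to 6 called members of each list with the largest change and 3 uncalled members with the highest level, and from a fixed set of regulators. Cd68, Adgre1, Col3a1, Chil4, Odc1, Nos2, Fcgr1, Il2rg, Pias3, Egr2, Ccl17, Cxcl16, Il1b, Il6, Vegfa, Msmo1, Hmox1, Prg2, Prg3, Epx and Il13 were added after their values were seen. Members and lists were chosen with earlier results of these data known. Alternatives changed the scaling, filter, pseudocount, trend, weights, block and samples fitted. The libraries treated with CDDO-Me entered the shared variance only.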

Additional observations from a re-analysis of the deposited data

How the results depend on the processing

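WT CM against control media gave 1002 calls as reported. The count was 4127 with array weights, 1734 with the replicate block, 2041 with only the 2 groups compared and 3300 with those groups and the block. Among alternatives chosen after seeing the data it was 2597 without the 2 libraries with the fewest genes and 1644 with fibroblast markers as a covariate. It was between 606 and 722 without 1 of the 6 libraries, and between 888 and 1009 under the other alternatives. All 1002 genes were called with the block, which ended no call. WT CM against NRF2 KO CM gave 1455 calls as reported, 3396 with array weights, 2564 with the block, 162 with only the 2 groups, 39 with those and the block, 3344 with the fibroblast covariate and between 811 and 2429 without 1 library. WT CM against KEAP1 KO CM gave 0 calls as reported, 1 without the filter, 1080 with array weights, 50 with only the 2 groups and the block, and between 0 and 1 without 1 library. The cause of these shifts was not tested. Leaving out a library left that group with 2, which were assumed to vary like the other groups.

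Of 108 named genes that were called, 84 were called in the same direction under every alternative run. Signs turned only for genes that were not called. Cd68 was at -0.12 and Stat3 at -0.07 with the fibroblast covariate. Il1b was at 0.23 with array weights and between -0.38 and 0.14 without 1 of the 6 libraries, above 0 without WT/vehicle replicate 3 and media/vehicle replicate 2. Il6 was between -0.04 and 0.23 without 1 library, below 0 without WT/vehicle replicate 1 or 2 or media/vehicle replicate 2 or 3. Depth is unknown, so levels near 0 TPM have no stated precision.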

Other observations

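Several genes among the largest changes belong to none of the gene lists. Scn3a, which encodes a voltage-gated sodium channel subunit, was at 0.0586, 0.307 and 0.0381 TPM in naïve BMDMs and at 33.2, 25.6 and 50.2 TPM with WT CM (log2 fold change 5.01, SE 0.22, adjusted p = 5.1e-12 by limma). Cldn11, a claudin of tight junctions, was at no more than 0.098 TPM in naïve BMDMs and at 34.7, 19.8 and 8.75 TPM with WT CM (log2 fold change 4.23, SE 0.33, adjusted p = 3.6e-08). Neither gene overlapped between the groups, although WT/vehicle libraries varied widely for Cldn11. Tarm1, a receptor of myeloid cells, rose from at most 0.0526 TPM to 21, 13.8 and 38.4 TPM.

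The largest falls after Cx3cr1 were in Fcrl1 and Adra1a. Fcrl1, an Fc receptor-like gene best known from B cells, was at 17.6, 14 and 16.9 TPM in naïve BMDMs and at 1.62, 1.86 and 1.33 TPM with WT CM (log2 fold change -2.66, SE 0.13, adjusted p = 3e-11). The summed level of 10 B cell markers was also lower with WT CM, at 111, 117 and 90.9 TPM in naïve and 82.6, 79.9 and 65.2 TPM in WT/vehicle BMDMs. Most of it was Ighm, at 93.2, 91.6 and 79.1 TPM against 69.1, 61.9 and 55.8 TPM with no overlap (adjusted p = 0.15, not called), while 6 of the 10 were at or under 1 TPM in all 6 libraries, and the part of B cells in the fall of Fcrl1 was not tested. Adra1a, an adrenergic receptor, was at 25.9, 20.5 and 18.1 TPM against 2.95, 2.16 and 2.37 TPM (log2 fold change -2.62, SE 0.23, adjusted p = 1.3e-07).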
